A study of Mus musculus with 18 samples.

Results

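Tail-tip fibroblasts, the connective tissue cells that grow out of a piece of tail skin in culture, were compared with brain, liver and spleen of newborn mice by RNA sequencing, using control animals only. The comparison rests on 9 of the 18 libraries of the series: 3 of fibroblasts and 2 each of brain, liver and spleen. It asks which genes set a cultured mesenchymal cell apart from whole newborn organs. Each deposited column was divided by its own sum and multiplied by 1000000, so that values are read counts per 1000000 reads in genes (CPM). Of 46078 gene identifiers, 45229 matched the gene annotation, and 17380 of these had a mean of at least 1 CPM over the 9 libraries and were tested.

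Fibroblasts build and maintain connective tissue. They secrete fibrillar collagens, which specific enzymes hydroxylate, trim and crosslink, together with fibronectin, elastic fibre proteins, proteoglycans and matricellular proteins. They pull on this matrix through integrins and actin stress fibres. In culture on plastic they are known to take on features of activated, contractile fibroblasts, and they keep a record of their place in the body in the Hox genes they transcribe.

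All animals were female mice. Every control carried a deletion of 1 copy of Xist, the non-coding RNA that silences an X chromosome, so the fibroblasts and the organs share this deletion and none of the groups is wild type by its sample label, although the deposited columns are headed WT. The mutants of the series, used below only as a second set of measurements, carry the deletion on both X chromosomes. The fibroblasts are primary cells, taken from the tail tip and grown in culture, and the age of the animals they came from is not in the labels. The organs were taken on postnatal day 1 and are mixtures of cell types, so the comparison sets a cultured population beside whole tissues. The labels do not say whether replicates came from separate animals, so the p-values measure the spread between these libraries, which may be technical. In whole organs, fewer cells of a type and less RNA per cell cannot be told apart.

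The 9 libraries held 15.8 to 24.5 M reads in genes (M for 1000000), the fibroblasts 20.2 to 22.8 M. A gene with no read in a library could still have been present at up to 0.122 to 0.19 CPM, the level of 3 reads, depending on the library and for counting error only. Libraries of the same tissue correlated at 0.9585 to 0.9895 over the tested genes on the log2 scale, and fibroblast with organ libraries at 0.553 to 0.684. Brain is the label used here, whereas the design text of the series names heart: the brain controls held 1.01 and 2.17 CPM of Myh6 and no read of Actc1, both genes of heart muscle, while 18 genes of neurons and glia summed to 10720.4 to 12205 CPM. Xist was at 146, 97.4 and 69.4 CPM in the 3 control fibroblast libraries and at 592 to 1179 CPM over the 6 control organ libraries. The mutants had 10.2, 14.1 and 2.38 CPM in fibroblasts, 3.66 and 4.16 CPM in brain, 176 and 257 CPM in liver and 126 and 50.6 CPM in spleen, so liver and spleen mutants kept Xist reads. Each tissue came in a table of its own, scaled separately by the authors, so table and tissue cannot be told apart. The names of the 3 organ tables share a library prefix that the fibroblast table lacks, and its meaning was not given. A difference tied to this prefix cannot be told apart from fibroblasts against organs either.

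The fibroblast libraries stood apart from the organ libraries at genes that have near-identical copies elsewhere in the genome, and this touches several of the results. Processed pseudogenes, which are old cDNA copies of expressed genes, summed to 2348 to 2629 CPM in the fibroblast controls and to 16829 to 29424 CPM in the organ controls. The mutants showed the same gap, with 2239 to 2768 against 16447 to 23689 CPM. Of 936 tested processed pseudogenes, 807 were lower in fibroblasts than in each organ and 21 were higher. Some genes with such copies, given here as examples, went the other way. Gapdh, a glycolytic enzyme, measured 1949, 1402 and 1442 CPM in fibroblasts against 22.7 to 38.1 CPM in organs, and Ppia, a prolyl isomerase, 821, 751 and 805 against 5.83 to 22.8 CPM. In Gapdh 27.2% of the 31-base stretches of its exons also occur at another locus, and in Ppia 20.9%. How reads with several matching loci were counted was not given in the sources used here, and its part in these differences was not tested.

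Among protein-coding genes, calls varied with this share of copied sequence. With under 2% of it, 9.56% of 11250 genes were higher in fibroblasts than in each organ and 14.4% were lower. At 25 to 50% the shares were 38.6% and 4.44% of 360 genes, and at 50 to 100% they were 26.9% and 16.5% of 212 genes. Counts are therefore also given over the 12369 tested genes with under 2% of their 31-base stretches at another locus, called few-copy genes from here on. Of the 159 named genes that differed from each organ, 18 had 2% or more. The fibrillar collagens, Lox, Postn, Vim, Acta2 and Hoxb13 are few-copy genes by this measure.

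**Figure D1:**
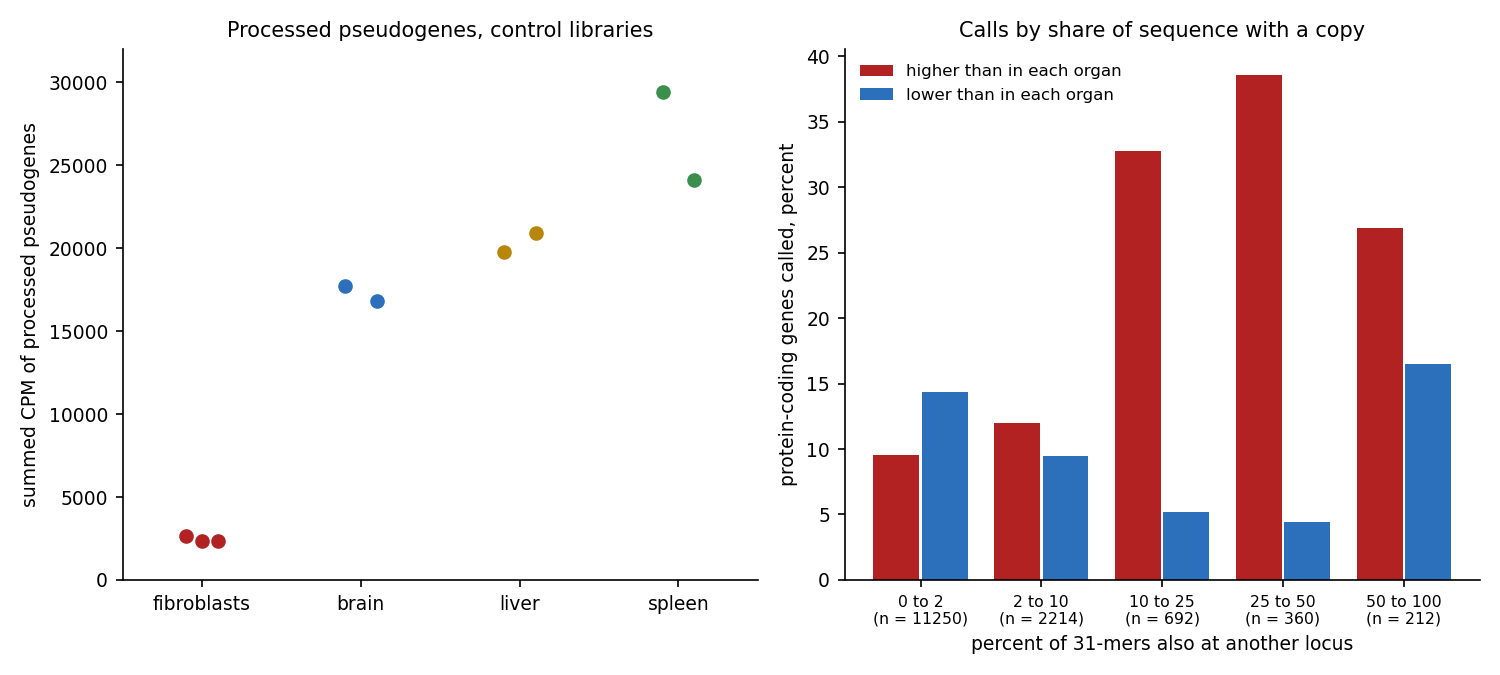
Left, the summed CPM of processed pseudogenes in each of the 9 control libraries (1 point per library). Right, the percent of tested protein-coding genes that were higher (red) or lower (blue) in fibroblasts than in each organ, by the percent of their exonic 31-base stretches found at another locus. The fibroblast libraries lie at 2348 to 2629 CPM and the organ libraries at 16829 to 29424 CPM, and the higher calls are most frequent, at 38.6%, where 25 to 50% of the sequence has a copy.

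A gene was called higher or lower than an organ at a Benjamini-Hochberg adjusted p under 0.05 in limma, fitted on log2(CPM + 0.5) to the 4 groups together, and a log2 difference below is the fibroblast mean minus the organ mean on that scale. For a gene well under 0.5 CPM in a group, the added 0.5 sets much of this difference, which understates the ratio. Against brain, 3888 genes were higher in fibroblasts (22.4% of those tested) and 8461 lower (48.7%). Against liver, 5962 were higher (34.3%) and 5610 lower (32.3%). Against spleen, 3542 were higher (20.4%) and 8166 lower (47.0%). The 3 comparisons share the same 3 fibroblast libraries and are not independent of each other. Meeting the threshold in the same direction against all 3 organs were 1903 genes that were higher (10.9%) and 3338 that were lower (19.2%). Among few-copy genes these numbers were 1098 (8.88%) and 2024 (16.4%). By plain order of the libraries, all 3 fibroblast libraries were above all 6 organ libraries in 2323 genes (13.4%) and below them in 4515 (26.0%).

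The differences were large for many of these genes. At least a 4-fold difference against every organ was seen for 716 of the 1903 higher genes and 1170 of the 3338 lower genes, and at least a 16-fold difference for 182 and 204. The median over all tested genes was not at 0: it was -0.56 against brain, 0.02 against liver and -0.52 against spleen on the log2 scale. Scaling by trimmed mean of M values (TMM) moved it by 0.41, -0.15 and 0.48, to -0.16, -0.13 and -0.04. With that scaling the higher genes made up 43.4% of the calls against brain in place of 31.5%, 48.4% in place of 30.3% against spleen, and 45.1% in place of 51.5% against liver, and 2702 genes were higher and 3103 lower than in each organ.

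**Figure D2:**
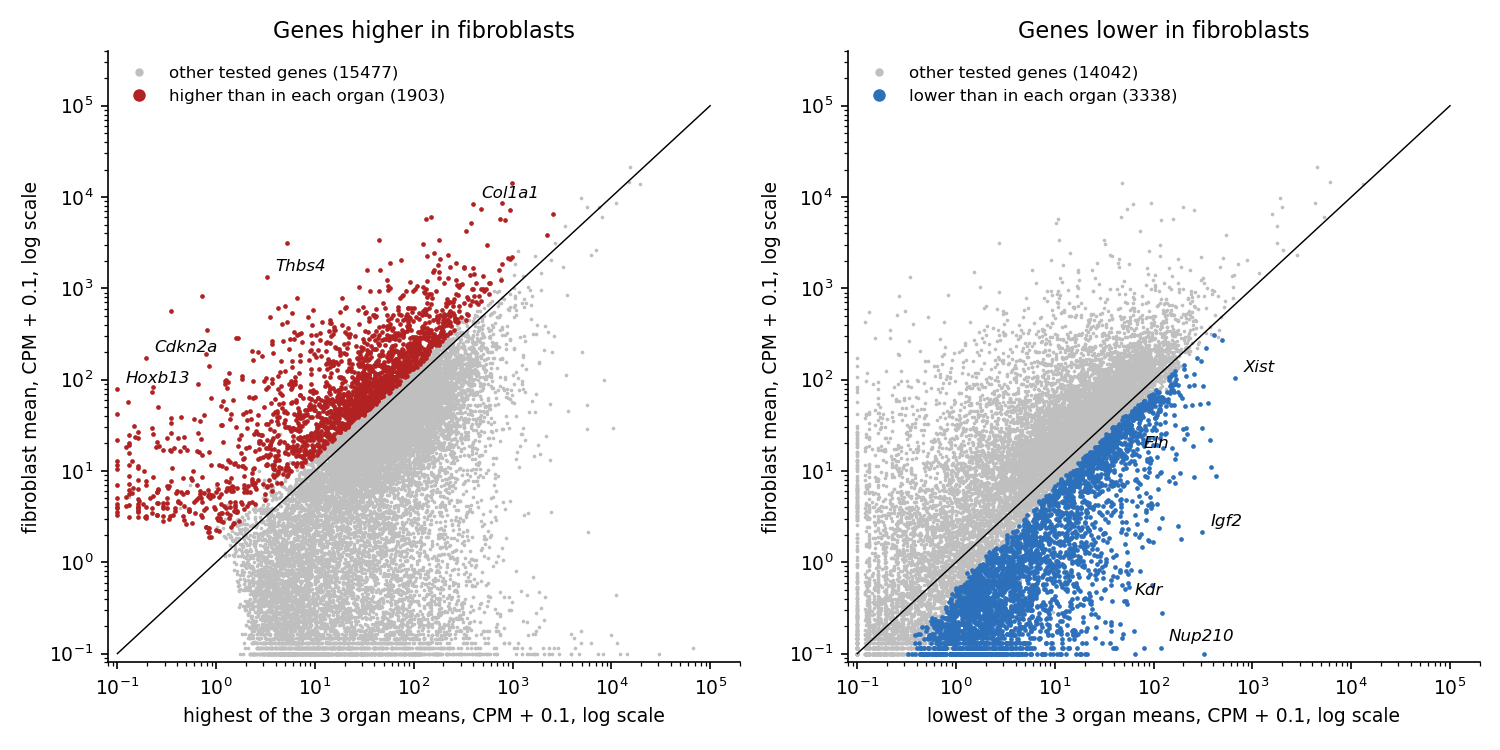
Mean fibroblast CPM (vertical, log scale, 0.1 added) against the highest (left) or lowest (right) of the 3 organ means, 1 point per tested gene, with the line of equality. The 1903 genes higher than in each organ are red and the 3338 lower ones blue, and named points such as Thbs4 and Nup210 lie far from the line.

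Genes were then read in 36 lists by role. Genes with almost no read on one side of the comparison passed the minimum of 1 CPM only through the other side, so counts over such lists describe these libraries and lend no support of their own. The shares of all tested genes, 10.9% higher and 19.2% lower, are the base for list counts against each organ, and 8.88% and 16.4% for those over few-copy members. A list of housekeeping genes also had 7 of 15 tested members higher than in each organ (46.7%) and 1 lower. In 9 of these 15 members, 2% or more of the sequence occurs at another locus. Of its 6 few-copy members, 1 was higher and 1 lower.

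**Figure D3:**
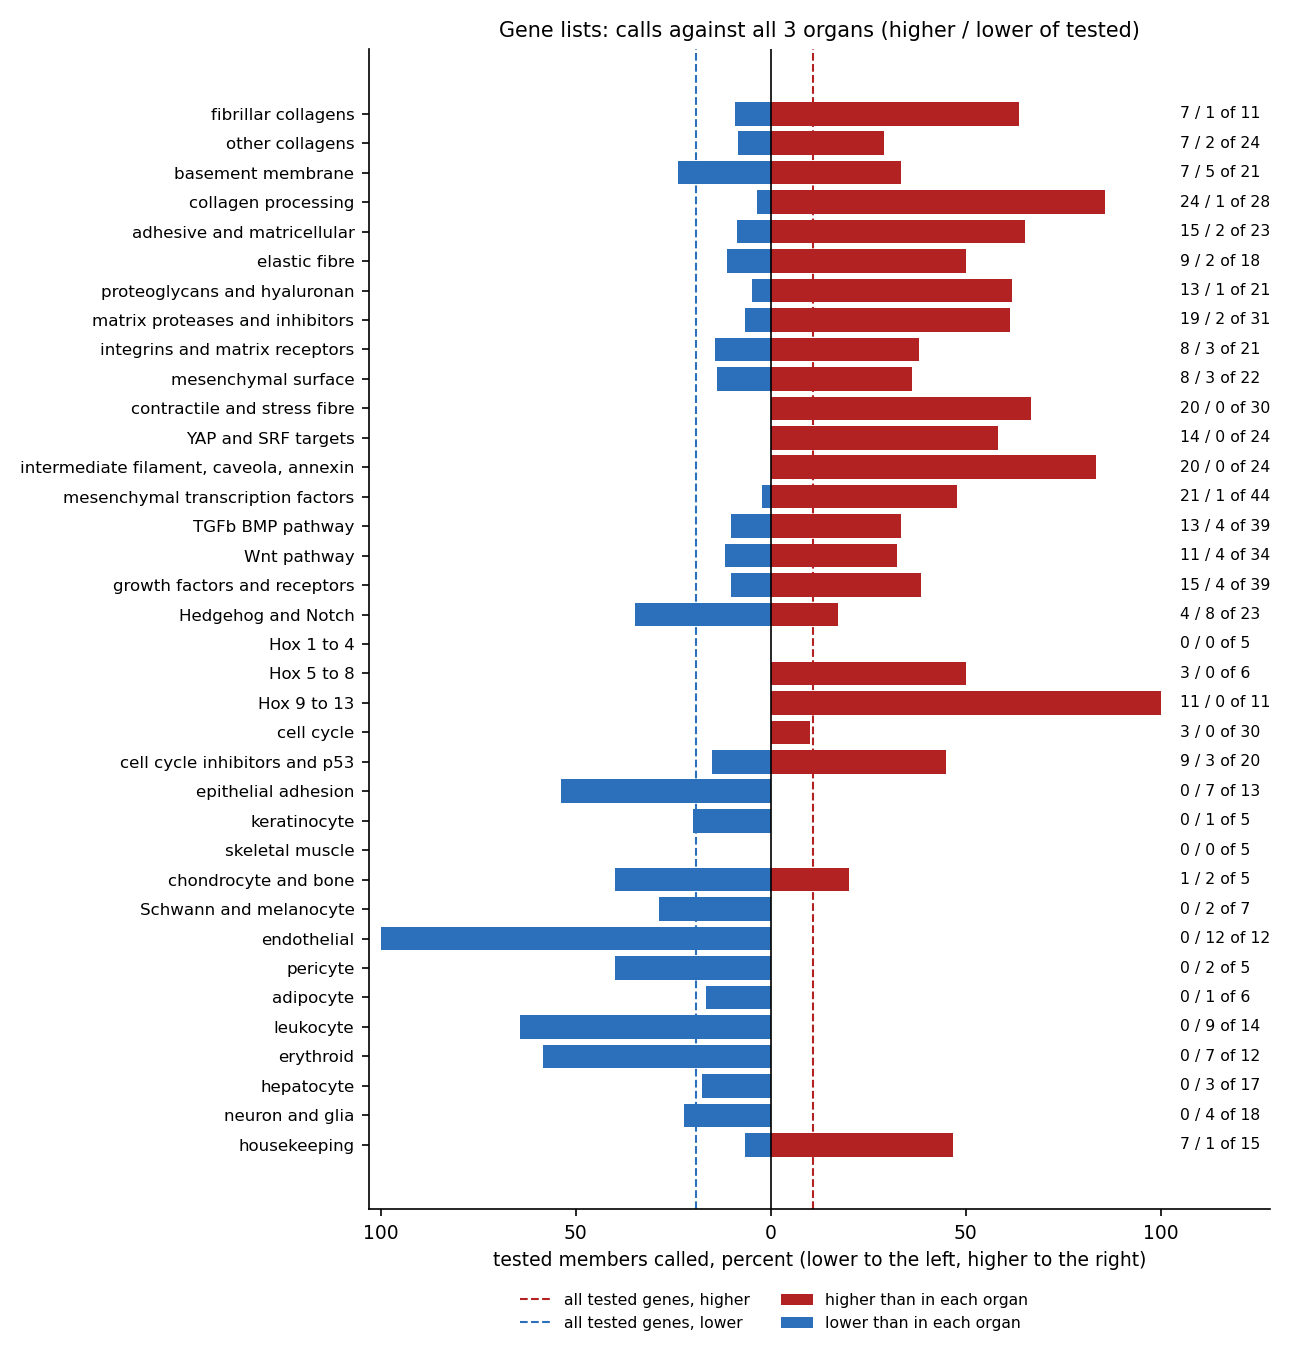
Percent of the tested members of each gene list that were higher (red, to the right) or lower (blue, to the left) in fibroblasts than in each organ, with the counts at the right margin and dashed lines at the shares of all tested genes (10.9% and 19.2%). Lists of collagen processing, contractile and intermediate filament genes extend to the right, and endothelial, leukocyte, erythroid and epithelial lists extend to the left.

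Fibrillar collagens were abundant in the fibroblast libraries. The 11 listed genes summed to 32555 to 35326 CPM in fibroblasts, 528 to 564 CPM in brain, 498 to 628 CPM in liver and 2055 to 2863 CPM in spleen. All 11 were tested, 7 were higher than in each organ, 1 was lower, and the median log2 differences were 4.65, 4.59 and 3.64 against brain, liver and spleen. Col1a1 encodes the alpha 1 chain of type I collagen, the main collagen of skin, tendon and bone (ENSMUSG00000001506, chr11:94936224-94953042 on the + strand of GRCm38). It measured 9927, 7686 and 7703 CPM in fibroblast controls 1, 2 and 3, 92.2 and 66.1 CPM in brain, 55.9 and 66.7 CPM in liver and 343 and 458 CPM in spleen. Every fibroblast library was above every organ library, and among organs the spleen was highest; the log2 differences were 6.74, 7.09 and 4.40 (SE 0.22), with a largest limma adjusted p of 8.95e-07. Its partner in the type I trimer, Col1a2, stood at 8001, 9189.8 and 8596 CPM against 72.4 to 943 CPM in organs.

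Collagen chains that join type I fibrils behaved alike. Col3a1, the chain of type III collagen, had 3495, 3150.0 and 2201 CPM against 108 to 606 CPM in organs. Type V collagen, which starts fibrils and limits their diameter, was represented by 3 chains, all higher than in each organ. Col5a1 measured 7219, 7764 and 7479 CPM in fibroblasts, 45.3 and 61.5 CPM in brain, 146 and 175 CPM in liver and 399.9 and 548 CPM in spleen. Col5a2 reached 5353, 6888 and 6018 CPM against 43.3 to 169 CPM in organs, and Col5a3 667, 497 and 461 against 1.39 to 7.71 CPM. These groups did not overlap for any of the 3 chains, and the log2 differences of Col5a3 were 6.51, 7.40 and 6.78 (SE 0.45, largest limma adjusted p 3.3e-06). The exception was Col11a2, a cartilage collagen chain, which was lower: 0.929, 0.989 and 1.40 CPM in fibroblasts against 5.26 to 26.9 CPM in organs, with log2 differences of -3.80, -1.93 and -2.83 (limma adjusted p up to 0.000249). Col2a1, the main cartilage collagen, met the threshold against liver and spleen but not against brain, with 12.7, 14.5 and 3.07 CPM in fibroblasts and 15.7 and 18.1 in brain.

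Among 24 tested collagens of other classes, 7 were higher and 2 lower than in each organ. The beaded filament chains of type VI collagen accounted for 3 of the 7: Col6a1 (2531, 2272 and 1952 CPM against 33 to 164), Col6a2 (1156, 991 and 892 against 14.9 to 59.4) and Col6a3 (3871, 3888 and 2299 against 29.6 to 195). Col8a1, a short-chain collagen of vessel and remodelling tissue, was also higher, with a wide spread of 64.3, 155 and 345 CPM between the fibroblast libraries. Basement membrane genes divided, with 7 of 21 higher and 5 lower. Lamb1, a laminin beta chain, measured 339, 394 and 476 CPM against 27.3 to 76.2 CPM in organs. Col4a4, a type IV collagen chain, had no read in 2 fibroblast libraries and 3.55 to 11.7 CPM in organs.

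**Figure D4:**
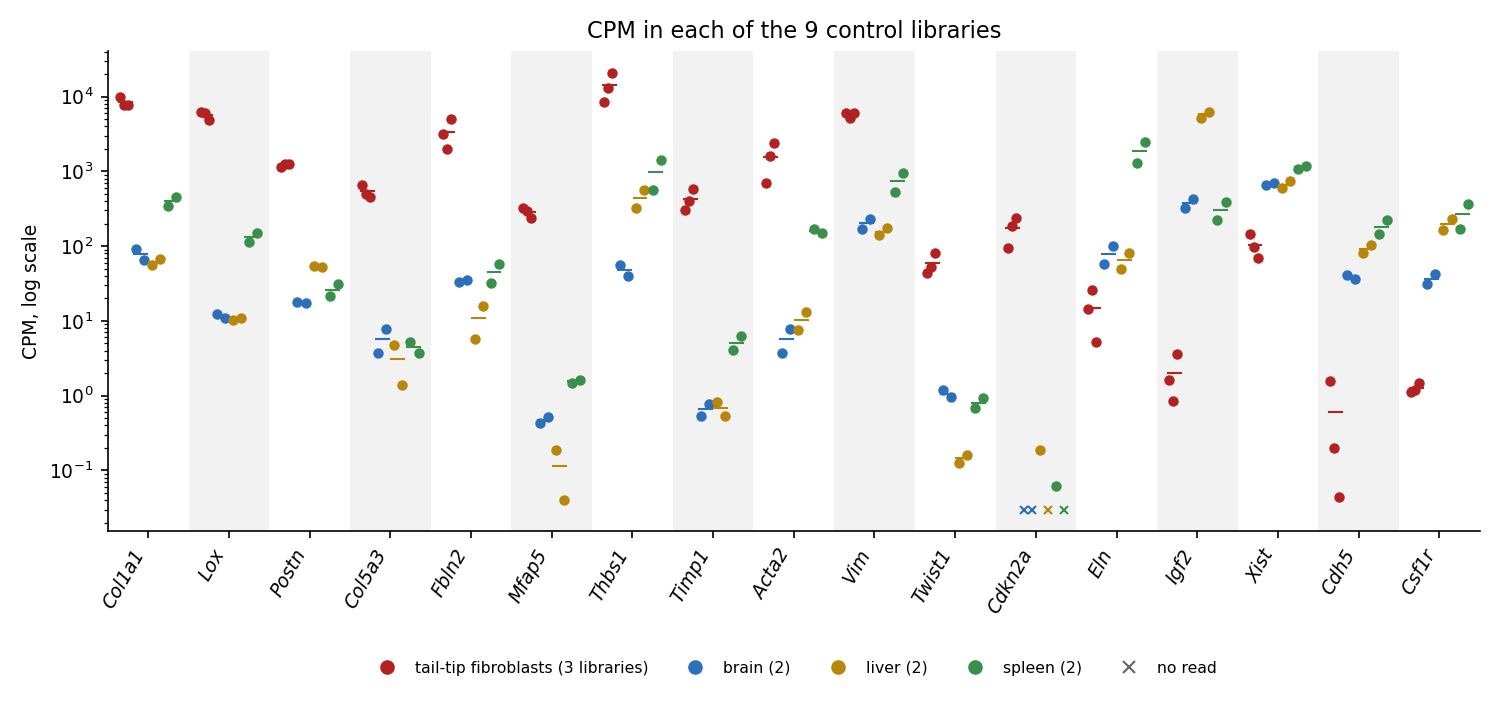
CPM (log scale) of 17 genes in each of the 9 control libraries, 1 point per library, with a bar at each group mean and crosses for libraries with no read. Red fibroblast points lie above all organ points from Col1a1 to Cdkn2a and below them from Eln to Csf1r.

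Enzymes that fold, hydroxylate, trim and crosslink collagen were also higher in fibroblasts. Of 28 tested members of the list, 24 were higher than in each organ and 1 lower, with median log2 differences of 3.80, 4.81 and 2.88. Over the 25 few-copy members the counts were 22 and 1. Their sum was 23427 to 27071 CPM in fibroblasts, 1081 to 1225 CPM in brain, 1546 to 2243 CPM in liver and 2131 to 3239.7 CPM in spleen. Lox, lysyl oxidase, makes the aldehydes that crosslink collagen and elastin. It measured 6294, 5981 and 4930.4 CPM in fibroblasts, 12.5 and 10.9 CPM in brain, 10.2 and 11 CPM in liver and 115 and 148 CPM in spleen. The lowest fibroblast library was above the highest spleen library by a wide margin, and the log2 differences were 8.87, 9.0 and 5.44 (SE 0.17, largest limma adjusted p 1.42e-07).

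All 5 members of the lysyl oxidase family were higher than in each organ. Loxl1 had 903, 950.5 and 776 CPM against 7.61 to 220.0 CPM in organs. Loxl3 was at 173, 261 and 408 CPM against 3.49 to 7.66, and Loxl4 at 55.4, 73.1 and 59 against 0.0533 to 0.857. Loxl2, at 418, 425 and 518 against 3.12 to 17.6 CPM, has 46.4% of its sequence at another locus and is uncertain for that reason. The collagen chaperone Serpinh1, also known as HSP47, measured 2312, 3725 and 3119.6 CPM against 30.8 to 146 CPM. Prolyl hydroxylase subunit P4ha2 (326, 337 and 267 against 3.39 to 10.4 CPM), lysyl hydroxylase Plod2 (181, 216 and 206 against 3.22 to 30.8) and the procollagen C-proteinase enhancer Pcolce (834, 850.3 and 654 against 8.91 to 82.2) did not overlap with the organs either. P3h2, a prolyl 3-hydroxylase of basement membrane collagen, was the lower member, at 1.76, 1.34 and 0.657 CPM against 2.35 to 73.2 CPM, and its call against brain was lost with TMM scaling, edgeR and DESeq2 and without fibroblast control 3 or brain control 2, in a fit of all 18 libraries and with the replicate block (adjusted p 0.0646 with the block, up to 0.191 over the alternatives).

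Matricellular proteins sit in the matrix and signal to cells without building fibres. Adhesive and matricellular proteins, read as 1 list, were mostly higher. Of 23 tested members 15 were higher and 2 lower than in each organ, with medians of 5.27, 4.51 and 3.88. Postn, periostin, binds collagen and is made by periosteum, dermis and activated fibroblasts (chr3:54361109-54391037, + strand). Its values were 1155, 1273 and 1270.4 CPM in fibroblasts, 17.7 and 17.4 CPM in brain, 54.5 and 52.9 CPM in liver and 21.3 and 30.8 CPM in spleen. The 3 fibroblast libraries lay close together and far above all organs, with log2 differences of 6.09, 4.51 and 5.56 (SE 0.17, largest limma adjusted p 1.28e-07). Thbs1, thrombospondin 1, an activator of latent TGF-beta, had the highest mean CPM among the higher genes, at 8483, 12946 and 20956 CPM against 39.5 to 1414 CPM in organs, with log2 differences of 8.13, 4.94 and 3.88.

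Sparc, a collagen-binding glycoprotein, measured 6013, 7825 and 7633 CPM against 227 to 1142 CPM. Ccn5, a growth regulator of the CCN family, was close to absent from organs: 695, 652 and 356 CPM in fibroblasts and 0.0628 to 0.431 CPM in the organ libraries, with log2 differences of 9.57, 9.60 and 9.56. Tnn, tenascin N, had 516, 368 and 335 CPM against 0.0816 to 5.46, and Spp1, osteopontin, 1413, 686 and 979 against 0.565 to 34.4. Thbs4, a tendon thrombospondin, was high in fibroblast controls 1 and 2 and much lower in control 3, at 2072, 1664 and 269 CPM, against 0.19 to 3.64 CPM in organs. Fn1, fibronectin, shows what the rule of all 3 organs leaves out and was picked after its values were seen. It measured 6828, 7699 and 8539.7 CPM in fibroblasts and 7242 and 7756 CPM in liver, which secretes plasma fibronectin, but 234 and 167 in brain and 671 and 660.1 in spleen. Vtn, vitronectin, a plasma protein of liver, and Smoc1 were the 2 lower members; Vtn had 1 read in the 3 fibroblast libraries together, and its call against spleen was lost with no filter on low values and when any library but spleen control 2 was left out (limma adjusted p up to 0.0989 over the alternatives).

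Elastic fibre genes were uneven. Of 18 tested, 9 were higher and 2 lower than in each organ, with medians of 4.34, 3.71 and 0.98. Fbn1, fibrillin 1, the backbone of microfibrils, measured 4880.3, 4119.9 and 3663 CPM against 58.8 to 398 CPM. Mfap5, a microfibril glycoprotein, had 320.1, 291 and 236 CPM against 0.0408 to 1.63 CPM, with log2 differences of 8.17, 8.84 and 7.09 (SE 0.23). Fbln2 (3191, 2020.2 and 4981 against 5.77 to 57 CPM) and Efemp2 (591, 634 and 598 against 4.53 to 22.6 CPM), 2 fibulins of the elastic fibre, also stood above every organ library. Eln itself, tropoelastin, was lower: 14.3, 25.9 and 5.17 CPM in fibroblasts, 57.7 and 101 CPM in brain, 49.3 and 81.7 CPM in liver and 1307 and 2464 CPM in spleen. The log2 differences of Eln were -2.56, -2.30 and -7.11 (SE 0.60, limma adjusted p up to 0.00855). The calls against brain and liver were lost in a fit of all 18 libraries and that against liver without liver control 2 (adjusted p of limma, edgeR or DESeq2 up to 0.0980 over the alternatives). The mutant fibroblasts, at 1.24, 114 and 10.1 CPM, spanned a much wider range, and Eln was not lower than each organ there. Ltbp4, which helps to deposit elastin, was the other lower member, and its call against brain was lost with TMM scaling, edgeR and DESeq2 and without fibroblast control 3 or either brain library, over protein-coding few-copy genes and with the replicate block (adjusted p 0.0687 with the block, up to 0.644 over the alternatives).

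Proteoglycans and hyaluronan enzymes were higher in 13 of 21 tested members and lower in 1, with medians of 2.23, 2.33 and 2.84. Aspn, asporin, a small leucine-rich proteoglycan, measured 177, 264 and 170.3 CPM against 0.216 to 2.76 CPM in organs. Lum, lumican, had 97.3, 127 and 98.6 against 2.10 to 15.8 CPM, and the hyaluronan synthase Has2 48.7, 64.6 and 158 against 1.40 to 9.67 CPM. Dcn, decorin, a standard fibroblast marker, was higher by less: 259.9, 258 and 166 CPM against 21.2 and 19.4 CPM in brain, 109 and 125 CPM in liver and 22.6 and 28 CPM in spleen. Gpc3, a glypican of fetal liver, was lower, at 3.16, 7.96 and 9.55 CPM against 33 to 673 CPM.

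Matrix proteases and their inhibitors were higher in 19 of 31 tested members and lower in 2, with medians of 3.31, 3.56 and 2.45. Over the 27 few-copy members the counts were 16 and 2. Timp1, an inhibitor of metalloproteinases, measured 307, 405 and 574 CPM in fibroblasts, 0.533 and 0.779 CPM in brain, 0.824 and 0.531 CPM in liver and 4.07 and 6.21 CPM in spleen. All 3 fibroblast libraries were far above every organ library, and the log2 differences were 8.50, 8.47 and 6.23 (SE 0.31, largest limma adjusted p 8.19e-07). Mmp2, a gelatinase of stromal cells, had 499, 706 and 709.8 against 12 to 298 CPM, and the membrane protease Mmp14 that activates it 1042, 848 and 808 against 58.5 to 158 CPM. The higher call of Mmp2 was lost without spleen control 1. Mmp9, the gelatinase of neutrophils and macrophages, was lower, at 0.325, 1.73 and 0.964 CPM against 4.03 to 341 CPM, though without brain control 1 its limma adjusted p against brain was 0.0683, the highest over the alternatives. Adamts9 was the other lower member, and its call was lost with TMM scaling, edgeR and DESeq2, with no filter on low values and without fibroblast controls 1 or 3 or any brain or liver library (adjusted p up to 0.240 over the alternatives).

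Receptors for the matrix differed in both directions. Of 21 tested integrins and matrix receptors, 8 were higher and 3 lower than in each organ. Itga5, the alpha chain of the fibronectin receptor, measured 649, 746 and 681 CPM in fibroblasts, 9.17 and 12.2 CPM in brain, 109.5 and 165 CPM in liver and 98.3 and 97.4 CPM in spleen. Ddr2, a receptor kinase for fibrillar collagen, had 373, 347 and 319 CPM against 4.06 to 15.7 CPM. Itga8 (1.07, 2.32 and 4.16 against 8.66 to 169 CPM) and the platelet and epithelial collagen receptor Itga2 (0.139, 0.148 and 0.131 against 1.52 to 25 CPM) were lower. Of 22 tested surface proteins of mesenchymal cells, 8 were higher and 3 lower. Thy1, also a neuronal glycoprotein, measured 728, 777 and 1042 CPM in fibroblasts, 67.9 and 87.3 CPM in brain, 0.444 and 1.02 CPM in liver and 3.02 and 6.09 CPM in spleen. Cd248, endosialin, had 493, 693 and 633 against 11.2 to 113 CPM, and Pdpn, podoplanin, 291, 154 and 134 against 0.571 to 11.6 CPM. Ly6a, at 345, 191 and 303 against 0.286 to 5.84 CPM, has 31.9% of its sequence at another locus.

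The labelled cell type was checked against its markers. Col1a1, Postn and Lox, and also Col1a2, Col3a1, Dcn, Thy1, Twist1 and Prrx1, were higher than in each organ. Pdgfra and Pdgfrb, the platelet-derived growth factor receptors of mesenchyme, were not, although Pdgfrb was higher than in each organ with TMM scaling, edgeR and DESeq2. Pdgfra measured 183, 103 and 81.1 CPM in fibroblasts, 69.6 and 71.3 CPM in brain, 22.9 and 19 CPM in liver and 97.1 and 153 CPM in spleen, and Pdgfrb 542, 481 and 387, 62.5 and 58.2, 33.7 and 63.1 and 208 and 416 CPM. Fap, fibroblast activation protein, was under the minimum for testing, at 1.07, 0.346 and 1.45 CPM in fibroblasts and 0.571 to 1.34 CPM in organs.

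Actin stress fibre and smooth muscle genes were higher in 20 of 30 tested members and lower in none, with medians of 3.47, 2.43 and 1.36; over 28 few-copy members the count was 18. Acta2, smooth muscle alpha-actin and the defining protein of myofibroblasts, measured 702, 1613 and 2407 CPM in fibroblasts, 3.68 and 7.88 CPM in brain, 7.55 and 13.3 CPM in liver and 168 and 152 CPM in spleen. Control 3 was more than 3 times control 1, and yet control 1 was above both spleen libraries, the highest of the organs; log2 differences were 7.88, 7.05 and 3.12 (SE 0.51, largest limma adjusted p 0.000603). Tagln, an actin-binding protein of smooth muscle, had 425, 869 and 1433 CPM against 2.45 to 132. Tropomyosin Tpm2 stood at 231, 337 and 427 against 3.20 to 36.7 CPM, and the filamin Flnc at 384, 455 and 366 against 2.79 to 32.5 CPM. Cnn1, calponin, varied most between the fibroblast libraries among the higher members of this list, at 46.5, 157 and 274 CPM against 0.373 to 4.99 CPM in organs.

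Targets of YAP and SRF, the transcription regulators that respond to stretch and to actin assembly, were higher in 14 of 24 tested members and lower in none, with medians of 2.21, 2.24 and 1.35. Ccn1, a secreted YAP target, measured 315, 289 and 436 CPM in fibroblasts, 2.93 and 2.12 CPM in brain, 2.98 and 2.41 CPM in liver and 19.8 and 11.4 CPM in spleen, with log2 differences of 6.83, 6.75 and 4.45 (largest limma adjusted p 2.64e-06). Ccn2, connective tissue growth factor, had 65, 157 and 367 CPM against 4.63 to 42.1 CPM, and its higher call was lost without spleen control 1. Ankrd1, a muscle ankyrin protein, was lower in level, at 7.52, 13.4 and 34 CPM, but near absent from organs, at 0 to 0.38 CPM. F3, tissue factor, had 271, 306 and 242 against 1.08 to 11.4 CPM.

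The upstream sequences of 4 of these genes are shown because their lists carry the letters of the TEAD motif, GGAATG, or of the CArG box that SRF binds, more often than other promoters. Each line is the 250 bases before the RefSeq start of the gene in GRCm38.p6, read in the direction of the gene, with capitals for matches to the motifs searched (on both strands, TATAAA of the TATA box, the TEAD motif GGAATG, the AP-1 motif TGANTCA, the CCAAT box and the CArG box). The CArG box was searched only as CCWWWWWWGG, with W for A or T, so near matches such as ccctatatgg in Acta2 stay in lower case.
Acta2: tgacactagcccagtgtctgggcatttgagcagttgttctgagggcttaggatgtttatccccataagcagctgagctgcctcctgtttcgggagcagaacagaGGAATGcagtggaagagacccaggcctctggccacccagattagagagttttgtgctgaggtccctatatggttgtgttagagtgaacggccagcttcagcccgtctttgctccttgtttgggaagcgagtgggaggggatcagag
Ccn1: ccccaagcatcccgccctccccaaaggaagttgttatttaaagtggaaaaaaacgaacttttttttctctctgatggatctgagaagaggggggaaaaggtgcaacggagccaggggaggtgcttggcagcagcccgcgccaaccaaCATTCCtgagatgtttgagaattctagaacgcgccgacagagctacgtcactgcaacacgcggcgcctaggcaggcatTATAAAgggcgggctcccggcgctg
Ankrd1: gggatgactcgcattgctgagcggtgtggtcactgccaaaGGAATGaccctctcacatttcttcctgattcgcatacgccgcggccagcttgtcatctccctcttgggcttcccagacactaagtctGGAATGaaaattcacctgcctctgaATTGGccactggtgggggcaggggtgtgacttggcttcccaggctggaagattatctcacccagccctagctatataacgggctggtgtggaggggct
Myl9: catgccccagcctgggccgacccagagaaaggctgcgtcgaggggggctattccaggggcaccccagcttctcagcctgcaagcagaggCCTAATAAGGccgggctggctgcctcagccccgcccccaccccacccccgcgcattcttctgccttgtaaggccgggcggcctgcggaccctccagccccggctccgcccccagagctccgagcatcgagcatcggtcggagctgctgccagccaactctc
They lie at chr19:34255374-34255623 (- strand) for Acta2, chr3:145649986-145650235 (-) for Ccn1, chr19:36119845-36120094 (-) for Ankrd1 and chr2:156775214-156775463 (+) for Myl9. Acta2 has GGAATG 146 bases before the start. Ccn1 has TATAAA at 25 bases and GGAATG on the other strand at 103 bases. Ankrd1 has GGAATG at 210 and 123 bases and CCAAT on the other strand at 98 bases, and Myl9, a myosin light chain at 80.0, 141 and 246 CPM in fibroblasts against 6.29 to 59.4 CPM in organs, has a CArG box at 161 bases. The higher call of Myl9 was lost without spleen control 1.

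Over the whole promoter table, GGAATG was found in 12.0% of 19113 windows. It was in 13.2% of 1394 windows of genes higher than each organ and in 10.4% of 1552 windows of lower genes. Of the contractile list 12 of 27 windows held it, and of the YAP and SRF list 10 of 19. The CArG box was in 1.35% of all windows, 3 of 27 contractile windows and 5 of 19 of the YAP and SRF list. Among the 11883 windows of tested genes, GGAATG was in 10.8% and the CArG box in 1.11%. TATAAA was in 9.04% of windows of higher genes, against 6.90% of tested genes and 11.8% of all windows. TGANTCA, the letters bound by AP-1, was in 5.60% against 4.42% and 6.21%, and CCAAT in 36.3% against 36.1% and 35.4%. The TATAAA and TGANTCA shares of higher genes thus lay above those of tested genes and below those of all windows. These are matches of letters, not binding sites. The YAP and SRF list was drawn up from known targets and the contractile list by known role. Their shares of GGAATG and the CArG box therefore lend no support of their own. List windows were counted for every member that had one, whether or not it was called. The 4 windows shown above were picked, and each holds a match to GGAATG or the CArG box.

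Intermediate filament, caveola, annexin and S100 genes were higher in 20 of 24 tested members and lower in none, with medians of 5.24, 4.40 and 2.87; 17 of the 20 few-copy members were higher. Vim, vimentin, the intermediate filament of mesenchyme, measured 6018, 5244 and 6062 CPM in fibroblasts, 170.3 and 233 CPM in brain, 140.2 and 173 CPM in liver and 531 and 950.0 CPM in spleen. Lgals1, galectin 1, had 2641, 2287 and 2438 CPM against 9.81 to 164 CPM. S100a4, known as fibroblast-specific protein 1, was lower in level but had almost no organ reads, at 29.3, 23.6 and 24.5 CPM against 0 to 0.308, and Ahnak, a giant scaffold protein, measured 5852, 5433 and 5493 against 104 to 942 CPM. Cav1, the main caveola protein, had 842, 867 and 1120.5 against 7.47 to 119 CPM. Per kilobase of exon, counting every base of any annotated exon of a gene, the fibroblast means were 2719 CPM per kb for Lgals1, 2326 for Thbs1, 1889 for Sparc, 1286 for Col1a1, 1218 for Vim, 1200.3 for Lox and 717 for Acta2. This length can exceed that of the transcript expressed, so these values compare different genes only roughly.

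Transcription factors of mesenchyme were higher in 21 of 44 tested members and lower in 1, with medians of 1.20, 3.32 and 2.70. Twist1, a factor of mesoderm and of epithelial to mesenchymal transition, measured 43.9, 51.9 and 80.8 CPM in fibroblasts, 1.17 and 0.953 CPM in brain, 0.127 and 0.163 CPM in liver and 0.678 and 0.942 CPM in spleen, with log2 differences of 5.20, 6.48 and 5.46. Prrx1, a limb and skin mesenchyme factor, had 249, 167 and 259.7 CPM against 0.449 to 18.6 CPM. Fosl1, an AP-1 subunit, was at 24.8, 22.8 and 28.5 against 0 to 0.254 CPM. Tbx2 was the lower member, at 0.511, 0.494 and 0.394 CPM against 5.46 to 19.7 CPM. Tcf21, a factor of visceral mesenchyme and spleen, chosen here after its values were seen, had no read in the 3 fibroblast libraries and 10.2 and 14 CPM in liver and 55 and 166 in spleen.

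The Hox genes separated by their number, which in the embryo follows position from head to tail. Of 39 listed, 22 passed the minimum for testing, and 14 of these were higher than in each organ. Paralogues 9 to 13, the tail end of the code, contributed 11 of the 14; they passed the minimum through their fibroblast libraries, and their counts are a description. Together they summed to 406 to 437 CPM in fibroblasts, 0 to 0.16 CPM in brain, 0.571 to 2.28 in liver and 5.48 to 6.72 in spleen. Hoxb13, at chr11:96194316-96197447, measured 49.8, 111 and 74.7 CPM in fibroblasts and had no read in any of the 6 organ libraries. Against the 3-read floor pooled over the organ libraries it was at least 2992-fold higher. Hoxb9 measured 119, 101 and 135 CPM against 0 to 1.29 CPM, and Hoxc13 94.4, 87 and 69.2 CPM with reads in only 1 organ library. Hoxc12 (26.8, 26.5 and 20.7 CPM), Hoxa10 (28.8, 35.5 and 37.3), Hoxa11 (20.1, 14.8 and 19.8) and Hoxa13 (7.52, 7.91 and 5.74) were also present in every fibroblast library.

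Lower numbers were less distinct. Among paralogues 5 to 8, 3 of 6 tested genes were higher than in each organ: Hoxb6 at 10.8, 11.1 and 12 CPM against 0 to 2.26, Hoxb7 at 6.45, 4.30 and 5.92 against 0 to 1.38 and Hoxb8 at 3.44, 2.18 and 2.76 against 0 to 0.431. Of 5 tested paralogues 1 to 4, none was higher in each or lower in each. Hoxb2 measured 10.6, 13 and 12.3 CPM and Hoxb3 10.4, 12.5 and 11.2 CPM in fibroblasts, and the 2 brain libraries disagreed, with 0.213 and 5.63 CPM of Hoxb2 and 0.48 and 23.1 CPM of Hoxb3. Brain control 2 also held Hoxa5 reads, at 0.267 and 16.1 CPM in brain controls 1 and 2. Without that library 2 of the 5 genes were higher than in each organ. The 9 listed Hoxd genes were under the minimum, and no fibroblast library had more than 0.279 CPM of any of them. The 11 higher paralogues 9 to 13 lie in the Hoxa, Hoxb and Hoxc clusters.

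**Figure D5:**
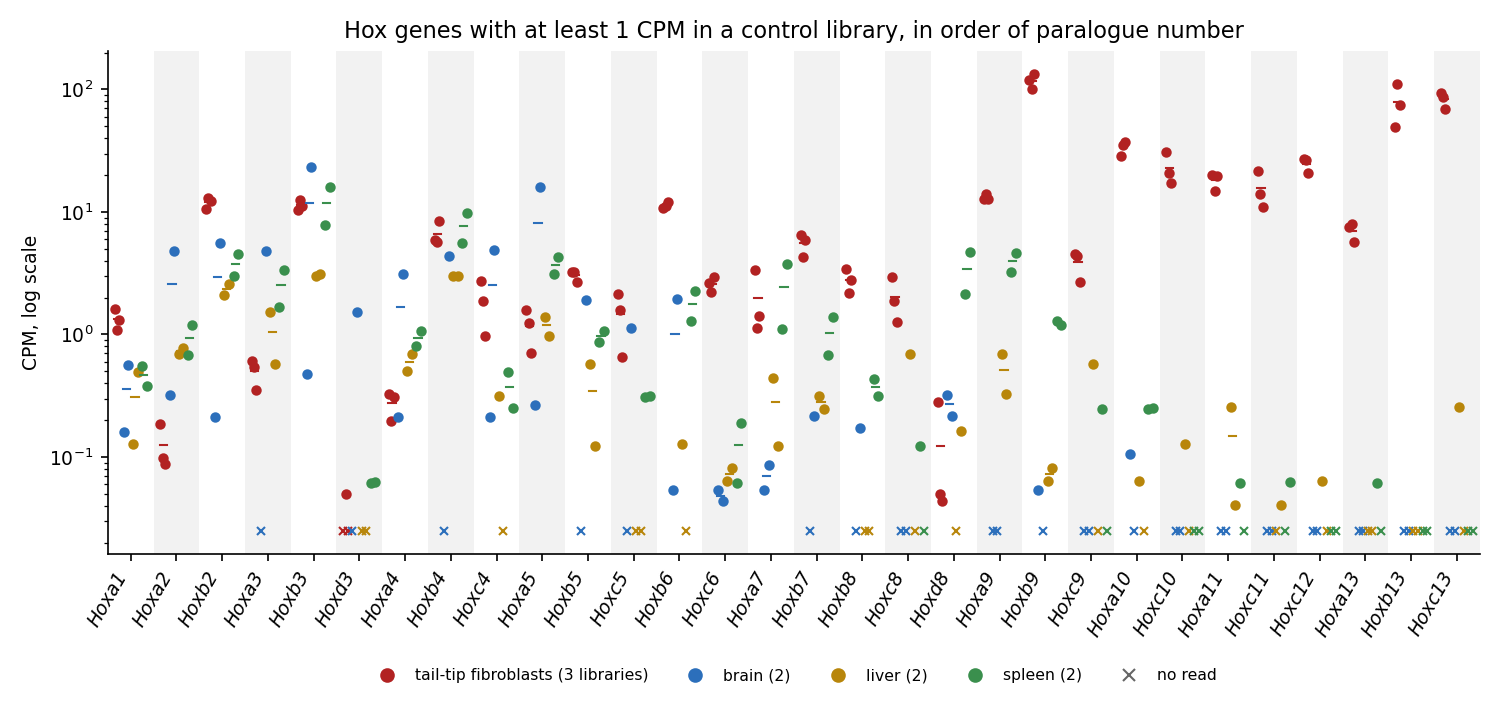
CPM (log scale) of each Hox gene with at least 1 CPM in a control library, ordered by paralogue number from left to right, 1 point per library, bars at group means and crosses for no read. From Hoxa9 on, the red fibroblast points stand above all organ points, while the genes with low numbers overlap.

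Signalling genes were mixed. In the TGF-beta and BMP pathway, 13 of 39 tested members were higher and 4 lower than in each organ. The activin subunit Inhba measured 122, 199 and 701 CPM in fibroblasts against 4.37 to 16.9 CPM in organs, and the activin-binding protein Fstl3 62.1, 83.6 and 92.5 against 1.22 to 6.78 CPM. Grem1, a secreted BMP antagonist, had 313, 169 and 302 CPM against 0.0816 to 3.98 CPM. Id2, a direct BMP target, was lower, at 7.38, 10.2 and 11.2 CPM against 59.5 to 163 CPM, as was the ligand Gdf10 (0.929, 0.989 and 1.23 against 10.8 to 46.2 CPM). In the Wnt pathway, 11 of 34 were higher and 4 lower. Receptor Fzd2 had 241, 273 and 225 CPM against 1.65 to 39.7, and the antagonist Dkk2 28.1, 60.8 and 54.2 against 0.122 to 1.28 CPM. Axin2, a feedback target of Wnt signalling, was lower in fibroblasts, at 0.65, 0.297 and 5.04 CPM against 7.58 to 67.2 CPM, a call against spleen that was lost with edgeR and DESeq2 and without spleen control 2 (adjusted p up to 0.145 over the alternatives).

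Growth factors and their receptors were higher in 15 of 39 tested members and lower in 4. Fgf7, the keratinocyte growth factor that dermal fibroblasts supply to epidermis, measured 72.4, 98.9 and 118 CPM against 0 to 1.60 CPM in organs. Vegfd had 76.5, 71.3 and 66.7 against 0.476 to 4.81 CPM and Angptl2 1325, 941 and 1249 against 11.3 to 129.5 CPM. The clearest lower gene was Igf2, the imprinted fetal growth factor: 1.63, 0.841 and 3.59 CPM in fibroblasts, 329 and 423 CPM in brain, 5240.0 and 6305 CPM in liver and 225 and 392 CPM in spleen. Fibroblasts were far below every organ, with log2 differences of -7.36, -11.31 and -7.04 (SE 0.43, largest limma adjusted p 2.19e-06). Igf1, the postnatal growth factor, was lower too, at 1.16, 3.16 and 4.69 CPM against 20.5 to 57.4, as was Pdgfb (0.232, 0.247 and 0.131 against 7.51 to 25.7 CPM).

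Hedgehog and Notch genes differed in both directions, with 4 of 23 higher (17.4%) and 8 lower (34.8%). Smo (133, 141 and 121 CPM against 22.6 to 91.4), the signal transducer of hedgehog, its co-receptor Gas1 (579, 512 and 319.6 against 7.10 to 39.2) and the effector Gli3 (113, 108 and 76.1 against 3.67 to 27.6) were higher, while the pathway's target gene Ptch1 (14.9, 13.8 and 10.8 against 36.1 to 132 CPM) was lower. Of the Notch genes, Dll4, a ligand of endothelium, was lower at 0.0464, 0.148 and 0 CPM against 10.3 to 25.6 CPM, and the target Hes1 was higher at 78.5, 47 and 69.9 against 7.15 to 41.6, a call not made again in the mutants. Against spleen, Hes1 lost its call in a fit of all 18 libraries and without fibroblast control 1 or spleen control 1 (limma adjusted p up to 0.143 over the alternatives), and Smo without fibroblast control 2 or spleen control 1 (up to 0.115).

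Genes of the cell cycle gave different answers for each organ. Of 30 tested members, 26 were higher in fibroblasts than in brain and none lower, where 22.4% and 48.7% of all tested genes were. Against liver, 4 were higher and 2 lower, beside 34.3% and 32.3% of all tested genes. Against spleen 3 were higher and 23 lower, beside 20.4% and 47.0%. In 13 of the 30 members, 2% or more of the sequence occurs at another locus. The summed level was 2457 to 2662 CPM in fibroblasts, 675 to 767 CPM in brain, 1799 to 3833 CPM in liver and 5985 to 12641 CPM in spleen, so fibroblasts lay above brain and below spleen. Mki67, the proliferation antigen, had 174, 114 and 52.8 CPM in fibroblasts, 63.3 and 45.8 CPM in brain, 1343 and 515 CPM in liver and 4946 and 1981 CPM in spleen. Higher than in each organ were 3 of the 30 members, beside 10.9% of all tested genes. These were the G1 genes Ccnd1 (188, 349 and 393 CPM against 19.1 to 48.3), Ccnd2 (344, 500.1 and 643 against 24.2 to 176) and Cdk4 (282, 263 and 249.7 against 87.2 to 194). Over the 17 few-copy members 2 were higher, since Cdk4 has 2.84% of its sequence at another locus.

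Cell cycle inhibitors and p53 targets were higher in 9 of 20 tested members and lower in 3. Cdkn2a, the locus of the p16 and p19ARF inhibitors, which is known to be induced as cells are cultured, measured 93.2, 184 and 241 CPM in fibroblasts (chr4:89274471-89294653). The organ libraries held 4 of its reads in all, with none in brain. The 3 fibroblast libraries differed by 2.58 times at most. Cdkn2a passed the minimum for testing through the fibroblasts, and against the 3-read floor pooled over the brain libraries it was at least 2408-fold higher. Its neighbour Cdkn2b, the p15 inhibitor, had 94.7, 130.2 and 194 CPM against 0 to 1.01 CPM. The p53 targets Cdkn1a (233, 416 and 776 against 6.35 to 73.5 CPM), Phlda3 (112, 187 and 243 against 2.08 to 13.3) and Eda2r (28.1, 58.1 and 106 against 0.0816 to 2.25) were higher as well, each highest in control 3. Cdkn1c, the imprinted p57 inhibitor, was lower, at 8.03, 3.91 and 4.25 CPM against 38.9 to 76.3 CPM.

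Over all genes, the widest higher differences included those of Thbs4, Ccn5, Mfap5, Hoxb13 and Cdkn2a, described above, and of Cilp, Ptgs2, Arsj and Gm2115. Cilp, a cartilage and tendon matrix protein, measured 876, 1383 and 207 CPM against 0 to 1.00 CPM. Ptgs2, the inducible cyclooxygenase, had 239, 238 and 565 against 0.0408 to 0.986 CPM, the sulfatase Arsj 169, 251 and 148 against 0.122 to 0.854, and Gm2115 241, 308 and 307 against 0.0408 to 1.56. Eef1a1, a translation factor, was among the 10 most abundant higher genes, at 6679, 6371 and 6628 against 1491 to 2906 CPM, but has 50.9% of its sequence at another locus. The 10 most abundant higher genes held 7.56% of all fibroblast CPM.

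The 10 widest lower differences included Igf2, described above. Hbb-bs, adult beta-globin, had no read in fibroblasts and 447 and 205 CPM in brain, 13381 and 4261 CPM in liver and 17256 and 11531 CPM in spleen. Sptb, erythroid spectrin, was at 0.139, 0.0989 and 0.307 CPM against 116 to 2807 CPM and the adducin Add2 at 0.65, 0.346 and 0.394 against 48.3 to 485 CPM. Nup210, a nuclear pore protein that is not made in all cell types, had 1 read in the 3 fibroblast libraries together against 111 and 148 CPM in brain, 123 and 112 CPM in liver and 465 and 376 CPM in spleen. Paqr9 stood at 0.0464, 0.0989 and 0.0876 against 38.9 to 669 CPM. Hba-a1 and the predicted genes Gm14303, Gm15427 and Gm10169 complete the 10. In these 4 genes 75.5% to 100% of the sequence also occurs at another locus, and in Hbb-bs 54.4%.

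Markers of other cell types that a tail explant could carry differed by list. Endothelial genes were lower in 12 of 12 tested members, which passed the minimum through the organs, and summed to 11.9 to 16.6 CPM in fibroblasts against 268 to 293, 379.7 to 518 and 694 to 1141 CPM in brain, liver and spleen. Kdr, the VEGF receptor of endothelium, measured 0.511, 0.148 and 0.175 CPM against 49.5 to 196, and Cdh5, VE-cadherin, 1.58, 0.198 and 0.0438 against 35.9 to 221 CPM. Leukocyte genes were lower in 9 of 14 tested members and summed to 7.97 to 9.10 CPM, with Csf1r of macrophages at 1.11, 1.19 and 1.49 CPM against 30.9 to 361 CPM. Erythroid genes were lower in 7 of 12. Keratinocyte genes were mostly under the minimum, with Krt5 at 0.464, 0 and 0 CPM and Krt14 at 0.882, 0 and 0 CPM in fibroblasts. Myod1, Myf5, Myog and Pax7 of skeletal muscle and Adipoq of fat had no fibroblast read. Epithelial adhesion genes were lower in 7 of 13 tested members: Cdh1, E-cadherin, had 1 read in the 3 fibroblast libraries together, against 3.09 to 120.2 CPM in organs. The epithelial list summed to 162 to 197 CPM in fibroblasts, close to 188 to 193 CPM in brain and 165 to 226 CPM in spleen, and most of it was Tjp1, a junction protein (187, 162 and 138 CPM). Pericyte genes summed to 93.8 to 149 CPM against 193 to 207, 89.5 to 132 and 166 to 303 CPM in brain, liver and spleen, with Cspg4, a proteoglycan also called NG2, at 132, 65.1 and 64.3 CPM in fibroblasts. Adipocyte genes summed to 33.4 to 109.6 CPM, with Cebpa, a transcription factor, at 59.8, 83.3 and 19.8 CPM. Of 6 tested members, 3 were higher and 2 lower than in brain, beside 22.4% and 48.7% of all tested genes. Against liver 0 were higher and 3 lower, beside 34.3% and 32.3%, and against spleen 0 and 3, beside 20.4% and 47.0%. Lower than in each organ was 1 member, beside 19.2% of all tested genes. The skeletal muscle list summed to 6.50 to 33.5 CPM, mostly Acta1, and the cartilage and bone list to 15.7 to 51.1 CPM against 226 to 491 CPM in spleen. The part of such cells in the results was not tested. Hepatocyte genes summed to 1.05 to 1.68 CPM in fibroblasts against 159307 to 179717 CPM in liver, and Tubb3, the neuronal tubulin, was at 11.3, 16.5 and 43.6 CPM against 2319 and 1999.7 CPM in brain. Perp of keratinocytes was lower than in each organ, but not with TMM scaling, edgeR or DESeq2 or without fibroblast controls 1 or 2 or spleen control 2 (adjusted p against spleen up to 0.162 over the alternatives). Alb, albumin, lost its lower call against brain with a pseudocount of 1, with no filter on low values and when any fibroblast, brain or liver library was left out (limma adjusted p up to 0.163).

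Among the fibroblast libraries, controls 1 and 3 were farthest apart and control 2 lay between them. Controls 1 and 3 differed at least 2-fold in 1046 tested genes (6.02%), controls 2 and 3 in 700 (4.03%) and controls 1 and 2 in 636 (3.66%). The median absolute log2 difference was 0.23 for controls 1 and 3, 0.17 for 2 and 3 and 0.18 for 1 and 2. Of the 102 named higher genes, 34 varied over 2-fold between fibroblast libraries, with control 3 at an end of 29 of these, control 1 of 29 and control 2 of 10. Over 4-fold were 13, of which control 3 was the lowest in 7 and the highest in 5. Low in control 3 were Thbs4 and Cilp, given above, Comp (14.3, 16.4 and 3.24 CPM), Meox2 (49.8, 48.9 and 8.02), Wnt16 (25.6, 16.5 and 5.96) and Mmp3 (42.9, 16.4 and 8.81). High in control 3 were Cnn1, Inhba, Ankrd1 and Col8a1, given above, and the growth factor Ereg (10.8, 36.4 and 75.2 CPM). Genes higher and lower than in each organ numbered 1792 and 3124 without control 1, 1701 and 2913 without control 2, and 1735 and 2965 without control 3, and the contractile list then had 19, 18 and 18 higher members in place of 20.

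The 9 mutant libraries, which share no library with the controls, gave a second measurement of the same contrast. They came in the same tables as the controls, so a difference between tables would recur in them. Calls seen again in the mutants therefore cannot tell table from tissue. In the mutants alone, 1780 genes were higher (10.2%) and 3561 lower (20.5%) than in each organ. Of the 1903 higher genes of the controls, 1582 (83.1%) were higher again in the mutants, which is 88.9% of the mutant calls. Of the 3338 lower genes, 2906 (87.1%) were lower again, or 81.6% of the mutant calls. Collagen processing genes kept 23 of 24 higher calls, Hox 9 to 13 kept 11 of 11 and the contractile list 17 of 20, whereas the Wnt pathway kept 5 of 11. Col1a1 measured 13886, 10271 and 8720.4 CPM, Postn 2912, 1762 and 1579.7 CPM and Lox 2823, 5639.6 and 5985 CPM in mutant fibroblasts. Cdkn2a was at 163, 55.4 and 175 CPM and Hoxb13 at 22.5, 82.9 and 108 CPM. Thbs4 was not higher again: mutant fibroblasts 1, 2 and 3 had 3.86, 2321 and 1867 CPM. Meox2, Comp, Wnt16 and Sfrp2, which also varied widely between control fibroblasts, were not called in the mutants either. Xist, lower than in each organ in controls with log2 differences of -2.74, -2.73 and -3.49 (SE 0.28, largest limma adjusted p 3.78e-05), was not lower than each organ in the mutants, whose deletion covers both copies.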

How the data were processed

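Total RNA was depleted of ribosomal RNA and sequenced as 50-nucleotide reads, per the labels' protocols. The deposited values are a signal, the authors' scaled read counts per gene, in 1 table per tissue (4 tables). HTSeq 0.6.1, edgeR and the builds GRCm38 and mm10 are named in the submitters' processing notes. Aligner, annotation release and strand setting were not given in the sources used here. Overlapping antisense genes therefore cannot be told apart. In every library 100% of the nonzero values were whole multiples (tolerance 0.05) of the value of 1 read, which gave the reads per library. Depth was 15.8 to 24.5 M reads in the control libraries, and floors of 3 reads cover counting error only.

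Each column was divided by its sum to give CPM. Genes with a mean of at least 1 CPM over the 9 control libraries were fitted with limma 3.58.1 (R 4.3.3; trend, empirical Bayes, 2-sided) on log2(CPM + 0.5) in 4 groups, with Benjamini-Hochberg adjustment within each organ. The 9 mutant libraries were fitted alone. The fit was tested on simulated counts. Gene types, exon lengths and 31-base stretches came from GENCODE mouse release 21 on GRCm38, which matched 45229 of 46078 identifiers. Promoter windows came from RefSeq GRCm38.p6.

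The members and lists were chosen with earlier results of these data known. Named genes were Col1a1, Postn, Lox and Xist; in each list up to 4 higher and 2 lower genes with the largest smallest difference, or with neither the 2 members highest in fibroblasts; over all genes the 10 higher and 10 lower likewise with a group mean of at least 10 CPM; and the 10 most abundant higher genes. Fixed cell type markers were also given. Some genes that the rule selects are not reported here. Other genes named (such as Fn1, Tcf21, Loxl1, Serpinh1, P4ha2, Plod2, Pcolce, Fbn1, Mmp2, Mmp14, Cd248, Fap, Tagln, Myl9, Ccn2, Cav1, Hoxa5, Hoxa10, Hoxa11, Hoxa13, Igf1, Ptch1, Mki67, Cdkn1a, Col2a1, Tjp1, Cspg4, Cebpa, Gm4735) were picked after their values were seen. Alternatives were other pseudocounts and filters, TMM scaling, edgeR 4.0.16 and DESeq2 1.42.0 on the recovered reads, a replicate block, a fit of all 18 libraries, each library left out and, added after seeing the data, few-copy genes. Heart is not analysed here.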

Additional observations from a re-analysis of the deposited data

Results flagged for a closer look

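Gm4735, a processed pseudogene (ENSMUSG00000064193, chr2:80837141-80838442 on the + strand of GRCm38) with 98.7% of its 31-base stretches at another locus, was the 1 gene called higher than each organ in the controls and lower than each organ in the mutants. In the controls it measured 6.13, 6.18 and 5.52 CPM in fibroblasts against 0.587 to 1.88 CPM in the organ libraries, with log2 differences of 2.45 against brain, 1.95 against liver and 1.91 against spleen. In the mutants it measured 5.23, 7.55 and 5.82 CPM in fibroblasts against 8.46 to 16.5 CPM in organs, with log2 differences of -1.08, -0.89 and -0.89. All control fibroblast libraries were above all control organ libraries, and all mutant fibroblast libraries below all mutant organ libraries. The fibroblast values of the genotypes were alike, and the organ values differed. The difference between the genotypes was not tested, and the part of copied sequence in it was not tested. No group had the 4 libraries that a search for outlying libraries needs.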

How the results depend on the processing

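Calls against brain numbered 12349, against liver 11572 and against spleen 11708, and 1903 genes were higher and 3338 lower than in each organ. With each library left out in turn these ranged from 10599 to 12885, 10275 to 12157, 10701 to 11854, 1670 to 1944 and 2913 to 3621, and the calls seen again in the mutants (1582 higher, 2906 lower) from 1406 to 1615 and 2655 to 2942. With a minimum of 5 CPM, which left 13624 genes, 2188 genes were lower than in each organ and 1935 of them again in the mutants. Restricting to the 12369 few-copy genes, a choice made after seeing the data, left 1098 higher and 2024 lower, of which 875 and 1691 were seen again. Over the 11511 protein-coding few-copy genes scaled to their own sum, also chosen then, there were 7949, 7447 and 7552 calls against brain, liver and spleen, and 1156 genes were higher and 1587 lower than in each organ. Fewer genes were tested in these 3 settings. The other settings kept every such count within 1.5 times: edgeR gave 2765 higher and 3190 lower (1873 and 2873 shared with limma), DESeq2 2743 and 3539 (1874 and 2982 shared), and higher genes made up 45.9%, 46.0% and 46.1% of the edgeR calls against brain, liver and spleen.

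Replicate numbers do not pair fibroblasts with organs by any label, and deviations of same-numbered libraries correlated at 0.0675, 0.0816 and 0.0648 for fibroblasts with brain, liver and spleen, and at 0.157 to 0.430 between organs. With the replicate block, calls were 12088, 11194 and 11275, with 1846 higher and 3103 lower than in each organ. Of the 1903 higher and 3338 lower genes of the control fit without the block, 1430 and 2649 were called again in mutants fitted with it.

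Of the named genes' differences under all alternatives, 10008 kept direction and side of the threshold, 92 lost the threshold, 17 gained it and 5 reversed; 20 genes lost a call. The reversals were Hoxb3 against brain without brain control 1 (range with 1 library left out, -0.99 to 3.60), Hoxb3 against spleen without fibroblast control 2 (-0.047) or spleen control 1 (range -0.48 to 0.52) and over protein-coding few-copy genes (-0.031), and Pax3 against brain without brain control 2 (range -2.17, a call, without brain control 1 to 0.59). None of these reversed values was called. The cause was not tested beyond the brain libraries' own values, 0.96 and 9.40 CPM for Pax3. Depth limits genes near 3 reads, and 2 libraries per organ limit the spread estimate, which is shared over 4 groups. Genes picked after their values were seen are not in the counts of this paragraph.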
